A study of Mus with 5 samples.

Results

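The 8 genes described here are conventional markers of retinoic acid (RA) signalling: the RA-degrading enzymes Cyp26a1 and Cyp26b1, the retinal reductase Dhrs3, the vitamin A transporter Stra6, the RA carrier Crabp2, the transglutaminase Tgm2, and the developmental regulators Hoxb1 and Cdx1. Every peak of the 4 lists whose gene column, as annotated by the authors, held 1 of these symbols was taken. This gave 6 of 27480 peaks: 0 in the RARα control list, 1 in the RARα list with RA, 4 in the BATF control list and 1 in the BATF list with RA. The 6 peaks belonged to 3 genes (Tgm2, Cyp26b1 and Hoxb1), and 5 genes (Cyp26a1, Dhrs3, Stra6, Crabp2 and Cdx1) were named for no peak in any list.

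The study mapped RARα and BATF on chromatin of wild-type mouse CD8 T cells from spleen by chromatin immunoprecipitation followed by sequencing (ChIP-seq), in which DNA bound by a protein is recovered with an antibody and places where fragments pile up are called as peaks. The cells were activated for 24 h with antibodies to CD3 and CD28 and IL-2, rested for 24 h in IL-2 at 100 U/ml, and finally given 50 nM RA or no RA (control) for 1 h. The sample labels name other interleukins than the methods do, and they do not give the RA status of the IgG cells or the age of the mice. Each list was called on 2 ChIP alignment files pooled by the authors against 1 shared IgG file, so there is 1 list per factor and condition, no spread between replicates and no test between conditions. The 2 RARα pools were nearly equal in depth, with 22655611 fragments in the control and 22475060 under RA. The BATF control pool was larger, at 23110180, and the BATF RA pool was the smallest of the 4, at 16424269, while IgG had 11410673. Peaks do not report expression, so they cannot test the labelled cell type. The BATF control annotation named all 5 CD8 T cell genes examined (Cd8a, Cd8b1, Cd3e, Cd3d and Cd2, with 52 peak assignments) and 1 of 3 myeloid genes (Itgam, with 1, and none for Lyz2 or Csf1r).

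RA acts through the retinoic acid receptors, which bind DNA as heterodimers with retinoid X receptors at repeated hexamer motifs called RA response elements. In many cell types RA switches on its own clearance: CYP26 enzymes oxidise RA, and DHRS3 returns retinal to retinol. CRABP2 carries RA to its receptor in the nucleus. BATF is an AP-1 family factor that works with JUN and IRF proteins in activated T cells. The comparison below asks whether these genes carried RARα or BATF in CD8 T cells, and whether RA altered this.

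None of the 8 genes was named for a RARα peak in the control list, where 3.53% of all genes in the gene table and 7.18% of the protein-coding genes were. All 8 are protein-coding. With RA, 1 of the 8 (12.5%) was named, which was Tgm2, against 1.55% of all genes and 3.19% of the protein-coding ones. BATF control peaks named 3 of the 8 genes (37.5%), against 23.7% of all and 48.6% of protein-coding genes. BATF peaks with RA named 1 of the 8 (12.5%), against 18.6% and 38.2%. No test was made on these counts of 0 to 3.

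**Figure D1:**
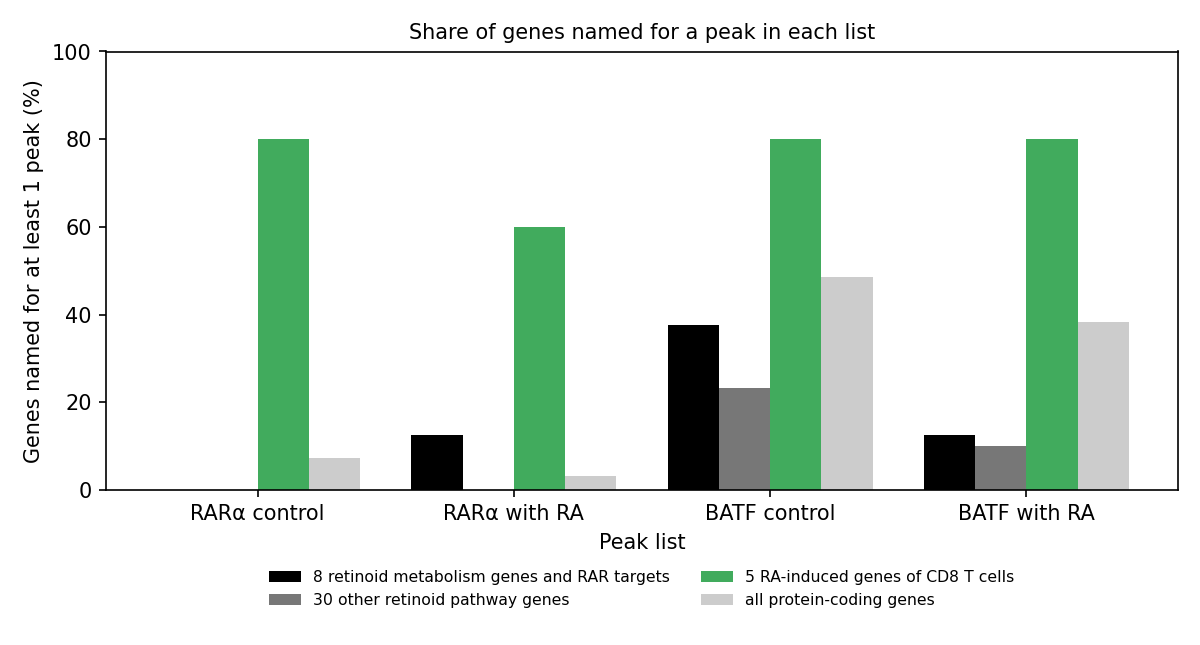
Share of genes that the annotation named for at least 1 peak (y axis, percent from 0 to 100) in each of the 4 peak lists (x axis). Bars stand for the 8 genes, 30 other retinoid pathway genes, 5 RA-induced genes of CD8 T cells named by the study, and all protein-coding genes. The black bars stand at 0, 12.5, 37.5 and 12.5%, and the green bars at 80%, 60%, 80% and 80%.

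All 6 peaks were classed as intergenic, and none overlapped the body of its gene. In the BATF control list as a whole, 2861 of 15812 peaks were classed as intergenic. The annotation named 2 to 7 genes for each of the 6 peaks. No peak of any list, named for the gene or not, overlapped any of the 8 gene bodies. Among protein-coding genes, 2.60% were overlapped by a RARα control peak, 1.02% by a RARα peak with RA, 40.8% by a BATF control peak and 29.9% by a BATF peak with RA. Only 1 peak lay within 10 kb of any of the 8 genes, a BATF control peak 6654 bp from Tgm2.

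Tgm2, which encodes tissue transglutaminase, a protein cross-linking enzyme widely used as a readout of RA, lies on chromosome 2 of GRCm38 (mm10) from 158116405 to 158146392. It was the only one of the 8 genes named for peaks of both factors. Its RARα peak appeared in the RA list alone, from 158159851 to 158160193, 13459 bp beyond the high-coordinate end of the gene. The summit held 12 fragments (95% Poisson interval 6.20 to 21.0, counting error only), the fold enrichment over IgG was 3.29, and the -log10 p was 4.86. Tgm2 was the nearest protein-coding gene, although the annotation named 7 genes for this peak. IgG was at its lowest level there, 2.95 fragments.

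This RARα peak was a weak call. The fold exceeded that of 74.9% of the 597 peaks in the RA list and the p-value was smaller than in 68.8% of them, but the -log10 q was 0.18, a q of 0.654, and only 97 peaks of the list had a q of at most 0.05. The RARα control list had no peak nearer than 1902970 bp. At the same IgG level, 9 fragments would have been enough for a call in the control pool, whose depth was nearly the same, and an equal rate would have given 12.1. The interval of the RA count reaches down to 6.20, below the level needed, and with 1 pool per condition the difference was not tested. The RARα peak lay 6492 bp from the nearest BATF control peak, outside the study's tolerance of 5 kb, and 130814 bp from the nearest BATF peak with RA.

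Tgm2 had 2 BATF control peaks, 1 on each side of the gene. The nearer, from 158109377 to 158109751, lay 6654 bp from the low-coordinate end inside a repeat annotated as an Arthur1C DNA transposon. It had 19 fragments at its summit (11.4 to 29.7), an IgG level of 2.86 and a fold enrichment of 5.12, higher than in 43.6% of the BATF control list. The second, from 158166685 to 158166962 and 20293 bp from the gene, had more fragments, 44 (32.0 to 59.1), but a lower fold of 3.70, at a local IgG level of 11 fragments, which is 3.84 times the lowest level of the list. For this peak D630003M21Rik, at 15571 bp, was nearer than Tgm2. Neither had a BATF peak in the RA list within 5 kb, and the nearest RA peaks were 80340 and 137648 bp away.

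Cyp26b1, an RA-degrading enzyme, lies on chromosome 6 from 84571414 to 84593908, and it alone among the 8 genes was named for a BATF peak in both conditions. The control peak ran from 84617140 to 84617404, 23232 bp from the gene, and the RA peak from 84617100 to 84617446 overlapped it, with summits 53 bp apart. The control peak lay 1082 bp from Exoc6b, which encodes a subunit of the exocyst, and Exoc6b was its nearest protein-coding gene. The summit had 23 fragments in the control (14.6 to 34.5) and 19 with RA (11.4 to 29.7). Per 1000000 fragments of the pool this was 0.995 in the control and 1.16 with RA, a ratio of 1.16 with an exact binomial 95% interval of 0.599 to 2.23 that covers counting error only. The interval includes no change as well as shifts in both directions. The fold enrichment was 3.95 in the control and 5.16 with RA, while the local IgG level at the summit was 5.00 and 2.88 fragments. No RARα peak lay within 1 Mb of Cyp26b1: the nearest was 1068823 bp away in the control and 4448671 bp away with RA.

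Hoxb1 is a homeobox gene with well described RA response elements in the embryo, and it lies on chromosome 11 from 96365746 to 96368254. Its only named peak was a BATF control peak from 96441434 to 96442153, 73180 bp away, which the annotation also named for Hoxb2, Hoxb3, Skap1 and Gm11529. Skap1, an adaptor of T cell receptor signalling, was its nearest protein-coding gene, at 22417 bp. This was the member peak with the most fragments, 50 (37.1 to 65.9), more than in 82.7% of the list, with an IgG level of 8 fragments and a fold of 5.60. The nearest BATF peak with RA was 12882 bp away, at a site 86781 bp from Hoxb1 and in an intron of Gm11529, where the control list also had a peak with a fold of 16.8. Across the 96.9 kb from Hoxb9 to Hoxb1, which hold 9 Hoxb genes, no list had a peak.

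**Figure D2:**
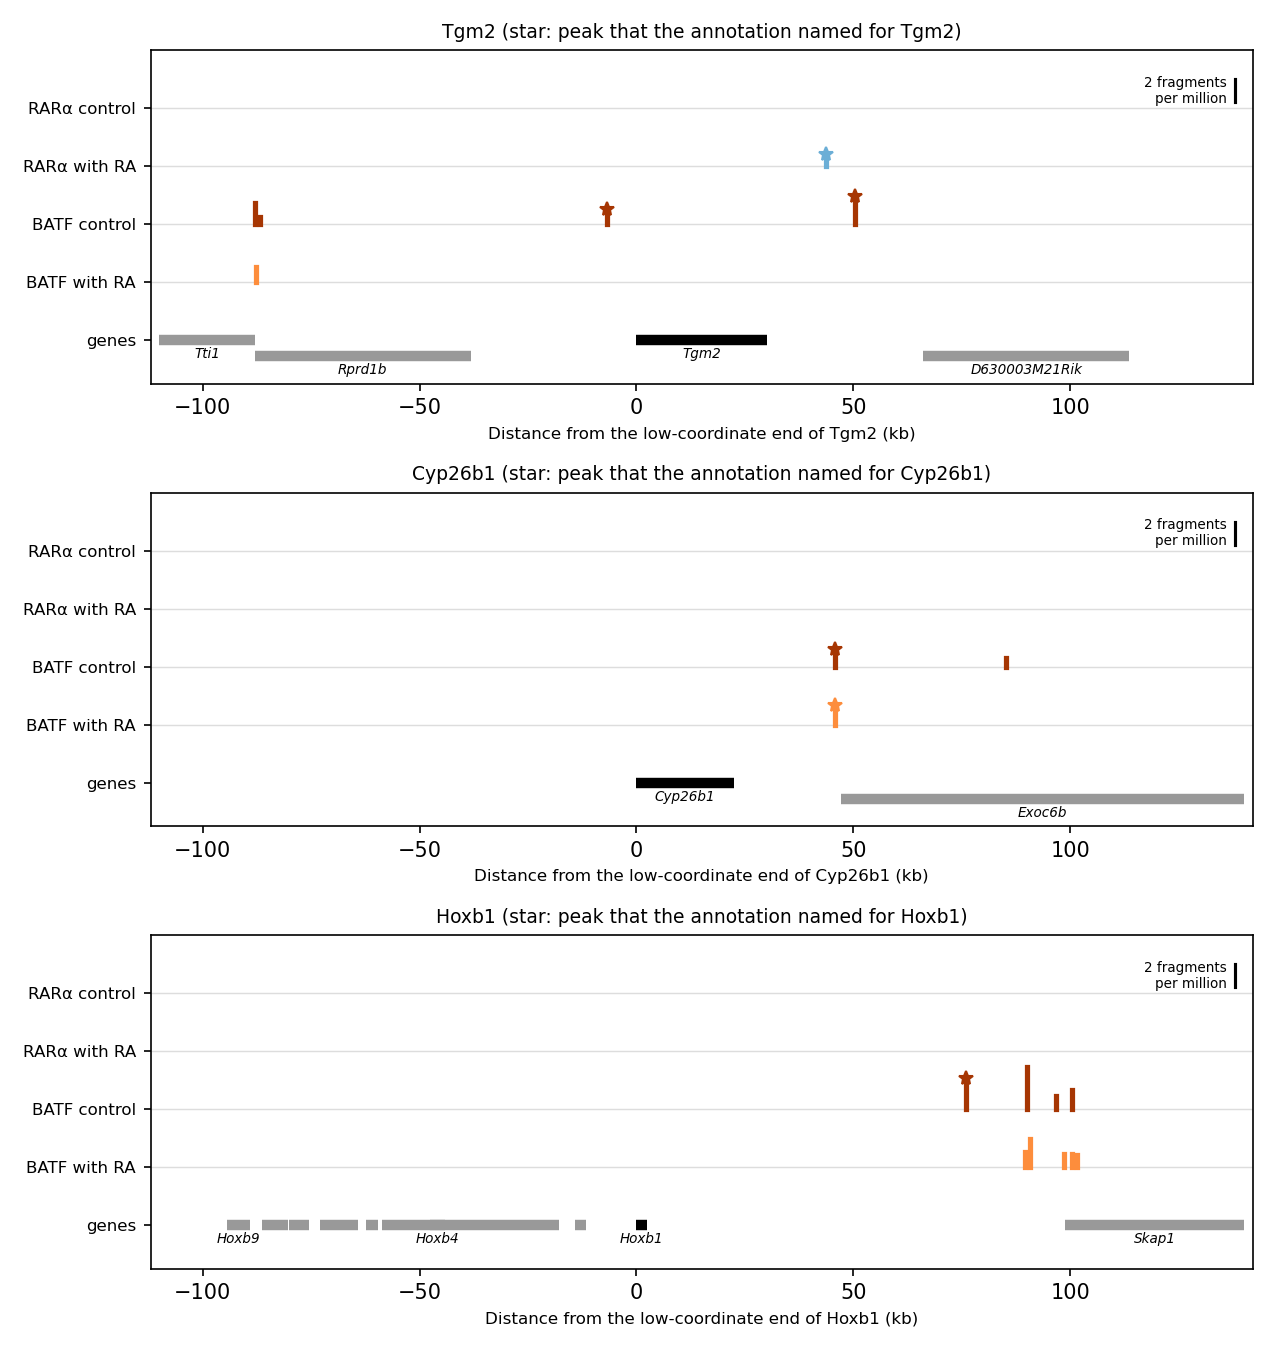
Peaks and protein-coding genes around Tgm2, Cyp26b1 and Hoxb1, as the distance in kb from the low-coordinate end of each gene (x axis), with the 4 lists in rows and the height of each line giving the fragments at its summit per 1000000 fragments of the pool. Stars mark the peaks named for the gene, black bars are the gene itself and grey bars its neighbours. No RARα control peak falls in the 3 windows, the stars lie 6.65 to 73.2 kb from their genes, and the Hoxb genes carry no peak.

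Of the 4 BATF control peaks named for these genes, 1 had a BATF peak with RA within 5 kb and 3 had none. Over the whole BATF control list 30.1% of the peaks had none, and among its intergenic peaks 37.7%. The RA pool was 71.1% as deep as the control, so the level a call needed there was worked out from the caller's Poisson rule and the IgG level of each site. For the Hoxb1 peak an equal rate of fragments would have given 35.5 in the RA pool (26.4 to 46.8), and 18 were needed. For the outer Tgm2 peak the equal-rate value was 31.3 (22.7 to 42.0) and 22 were needed. For the nearer Tgm2 peak it was 13.5 (8.13 to 21.1) and 10 were needed. These intervals carry the counting error of the control pool only, not that of the RA pool, so they do not show how likely a call was at an equal rate, and the part of depth in the missing calls was not tested. A call also needs a stretch as long as a fragment. At 8605 overlapping BATF peaks, the IgG level found in the RA list over the scaled one had a median ratio of 1.00 (quartiles 0.883 and 1.03). These peaks were called in both lists, so the scaling was not checked at the 3 sites without an RA call. At the Cyp26b1 peak the scaled IgG level was 3.54 fragments and the one found was 2.88.

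**Figure D3:**
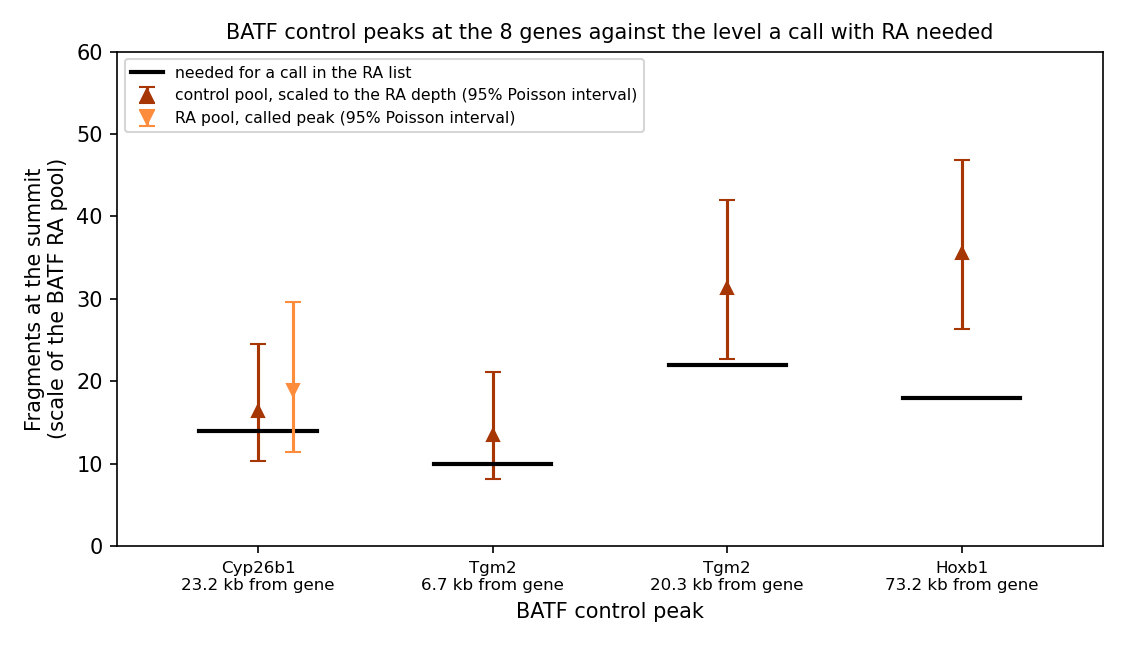
The 4 BATF control peaks named for these genes (x axis, with the distance to the gene) in fragments at the summit on the scale of the BATF RA pool (y axis, from 0). Triangles show control counts scaled to the RA depth and, for Cyp26b1, the called RA peak, with 95% Poisson intervals. Black lines show what a call in the RA list needed at the IgG level scaled from the control list. The equal-rate values, 16.3, 13.5, 31.3 and 35.5, stand beside 14, 10, 22 and 18 needed, and the intervals leave out the counting error of the RA pool.

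The other 5 genes were named for no peak. Cyp26a1, the RA-degrading enzyme most often used as a readout of RA, lies on chromosome 19 from 37697738 to 37701536. Its nearest RARα peak was 489639 bp away in the control and 2149046 bp away with RA. The nearest BATF peak, at the promoter of Exoc6, was 146655 bp away in the control and 147129 bp with RA. Its neighbour Cyp26c1, the third enzyme of the family, was also named for no peak. No peak of any list lay within 100 kb of Cyp26a1, Dhrs3 or Cdx1.

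Dhrs3, on chromosome 4 from 144892534 to 144928209, had its nearest RARα peak 189454 bp away in the control and 22976309 bp away with RA. Its nearest BATF peaks, in an exon of Vps13d, were at 249508 and 249498 bp. Cdx1, an intestinal homeobox gene on chromosome 18 from 61018862 to 61036199, had its nearest RARα peaks at 4051457 and 5400172 bp. BATF was called at the promoter of Hmgxb3, 140122 bp from Cdx1 in the control and 140002 bp with RA. For both genes the same BATF sites were called in both conditions.

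Crabp2, on chromosome 3 from 87948693 to 87953372, had a BATF peak 18102 bp away in the control and 17927 bp away with RA, at a promoter that the annotation gave to Isg20l2 and Rrnad1. That peak had 42 fragments and a fold of 7.08 in the control, and 22 fragments and a fold of 4.32 with RA. These counts were not scaled for depth, and the RA pool was 71.1% as deep as the control. The nearest RARα control peak, in an intron of Etv3, was 418789 bp from Crabp2, and with RA it was 3211901 bp. Within 100 kb of Crabp2 there were 5 BATF control peaks and 6 with RA, none of them named for it.

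Stra6, on chromosome 9 from 58063793 to 58154004, was the only 1 of the 8 genes with a RARα control peak within 100 kb. That peak, 90924 bp away, had 19 fragments, an IgG level of 6.32 and a fold of 2.73, and a second RARα control peak, 94744 bp away, had 32 fragments and a fold of 4.12. The nearer RARα peak overlapped a BATF control peak, 90915 bp from Stra6 with a fold of 3.06, and a BATF peak with RA, at 91276 bp with a fold of 3.82. The annotation gave these sites to Ccdc33, Ubl7, Cyp11a1, Sema7a and Gm16130. With RA the nearest RARα peak was 762586 bp from Stra6.

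Across the 8 genes, the median distance from the gene to the nearest peak was 474 kb for RARα control and 2.68 Mb for RARα with RA. Over all protein-coding genes the medians were 607 kb and 1.62 Mb. For BATF the medians were 82.0 kb in the control and 89.3 kb with RA, against 11.4 kb and 31.3 kb over all protein-coding genes. For RARα, no gene of the 8 had a peak within 10 kb in either list, against 3.99% of protein-coding genes in the control and 1.46% with RA. Within 100 kb there was 1 gene in each list (Stra6 and Tgm2), against 14.4% and 5.17%. In the BATF control list 1 of the 8 genes had a peak within 10 kb and 5 had a peak within 100 kb, where protein-coding genes as a whole reached 48.5% and 71.4%. With RA the counts were 0 and 5, against 38.6% and 65.5%. The distances are a description of 8 chosen genes and say nothing of retinoid genes in general. The lowest summit called in either RARα list had 9 fragments, which at the lowest IgG level is a fold of 2.58 in the control and 2.53 with RA. Summits with fewer fragments were not called. These folds are not the lowest called: at a higher IgG level, lower folds passed. Examples are 2.52 at the control peak nearest to Hoxb1 and 2.48 at the RA peak nearest to Dhrs3.

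**Figure D4:**
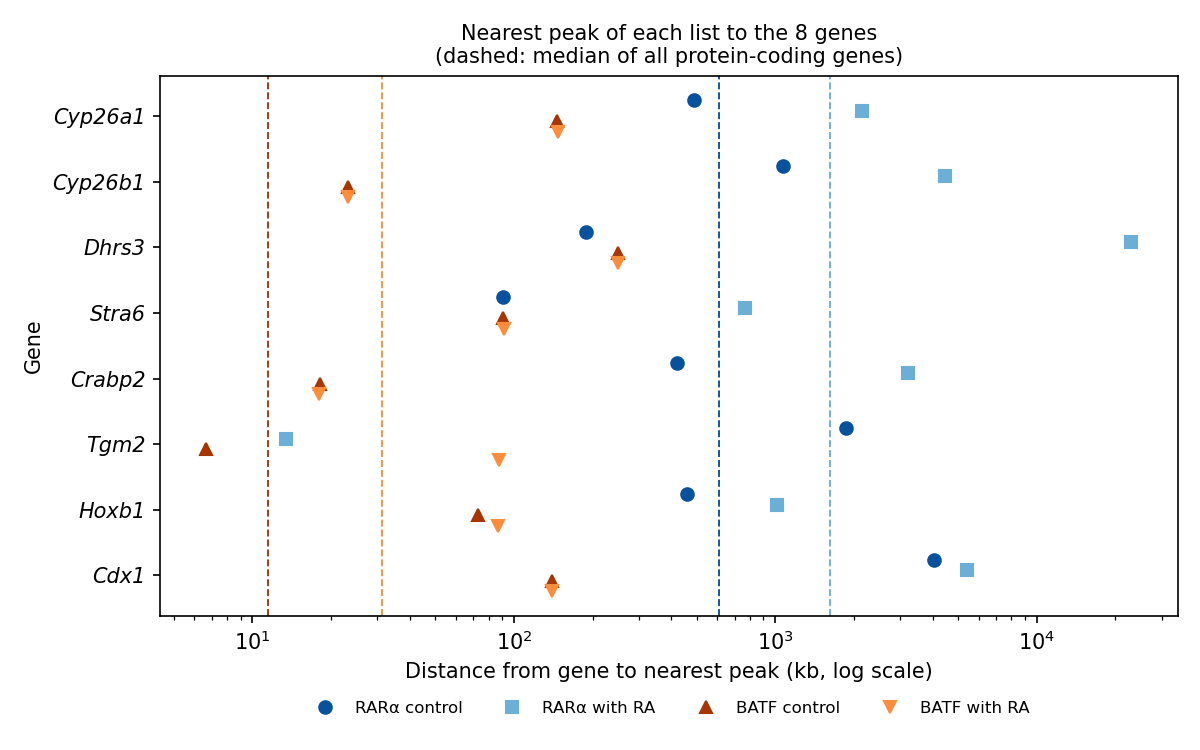
Distance in kb (x axis, log scale) from each of the 8 genes (y axis) to the nearest peak of the 4 lists, with dashed lines at the medians of all protein-coding genes. Circles and squares are RARα without and with RA, and triangles pointing up and down are BATF without and with RA. For 7 of the 8 genes the BATF control peak lies beyond its dashed line, Tgm2 at 6.65 kb being the exception, and the RARα peak with RA at Tgm2 lies at 13.5 kb.

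A list of 30 other genes of retinoid handling and response was examined in the same way. None was named for a RARα peak in either list, against 7.18% (control) and 3.19% (with RA) of protein-coding genes. BATF control peaks named 7 of the 30 (23.3%) and BATF peaks with RA named 3 (10%), where 48.6% and 38.2% of protein-coding genes were named. By role, they were 5 of 9 dehydrogenases and reductases (Rdh10, Rdh11, Rdh12, Rdh14 and Dhrs4), 1 of 5 uptake and carrier genes (Fabp5) and 1 of 3 storage and cleavage genes (Bco2), counts too small to set a role apart from the share over all protein-coding genes. None of the 3 RA-synthesising Aldh1a genes and none of 9 further RA-induced genes was named. At Rdh11, a retinal reductase, the BATF promoter peak had 41 fragments and a fold of 5.19 in the control. With RA it had 24 fragments, from a pool 71.1% as deep, and a fold of 6.52.

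By position, taking for each gene of that list only its BATF control peak of highest fold within 10 kb, the gene with the highest was Bco2, a carotenoid-cleaving enzyme, whose peak lay in an intron, inside a LINE repeat. It ran on chromosome 9 from 50537236 to 50537591 and had 86 fragments and a fold of 12.3. The overlapping RA peak had 48 fragments, from a pool 71.1% as deep, and a fold of 9.49. Bco2 had a further pair of BATF control peaks within 10 kb, both with an overlapping RA peak. That with a fold of 9.68 lay 4251 bp away, was classed as a promoter and was named for Pts. That with a fold of 8.84 lay in an intron of Bco2, inside an LTR repeat. The next gene was Rdh5, a retinol dehydrogenase, whose peak lay 2841 bp away with 36 fragments and a fold of 8.39 and was classed as the promoter of Bloc1s1. The third gene was Stra8, an RA-induced gene of germ cells, whose peak lay 9251 bp away with 34 fragments and a fold of 5.76 and was classed as the promoter of Wdr91. Neither the Rdh5 nor the Stra8 peak had a BATF peak with RA within 5 kb.

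The contrast was with genes that the study names as targets of RARα or as RA-induced in these cells: Ccr9, a gut-homing chemokine receptor, Itga4, an integrin subunit, P2rx7, an ATP-gated channel, Nt5e, which makes adenosine, and Art2b, an ADP-ribosyltransferase. Art2b is also 1 of the genes the study describes for its RARα peaks, and the group was put together with results of these data known, so its counts are not independent evidence. RARα control peaks named 4 of the 5, Itga4 being the exception, with 8 peaks in all, and RARα peaks with RA named 3, with 5. Of all protein-coding genes, 7.18% were named in the control and 3.19% with RA. The strongest was at the Art2b promoter, with 71 fragments and a fold of 13.8 in the control, and the nearest RARα peak with RA was 429219 bp away. At Ccr9 a peak 25918 bp from the gene had 47 fragments and a fold of 12.4 in the control and 24 fragments and a fold of 6.32 with RA. At Nt5e the RARα peak in intron 1 had 40 fragments and a fold of 4.59 in the control and 22 fragments and a fold of 3.33 with RA. At P2rx7 the promoter peak had 44 fragments and a fold of 5.66 in the control and 49 fragments and a fold of 4.61 with RA. It lay inside a LINE repeat, at a local IgG level of 6.95 fragments in the control and 9.85 with RA. The lowest IgG levels of these lists were 2.88 and 2.95. RARα was called in these pools at genes of this group and, in the control, at none of the 8 genes described here. The difference between the groups was not tested.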

How the data were processed

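The authors aligned paired-end reads with Bowtie2 to mm10 (GRCm38), discarded duplicates and ran MACS 2.2.7.1 with an effective genome size of 1870000000 bp and a p-value cutoff of 0.001 for RARα and 1e-05 for BATF. HOMER is named in the submitters' processing notes. The deposited signal is the pileup, which counts the fragments over a summit and was scaled by the authors to a step of 0.9875 per fragment in the BATF control list only, which was undone here. The deposited fold is a ratio, pileup plus 1 over IgG level plus 1, from which the IgG level was recovered. The deposited -log10 p and -log10 q are those of the peak caller, whose headers state that q was not calculated.

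The members and lists were chosen with earlier results of these data known. A gene was counted as named when the annotation's symbols, split at semicolons, held it. Distances run from peak edge to gene edge in a RefSeq table for GRCm38.p6, which has no strand, and at least 99.5% of the symbols per list had an entry there. Peaks within 5 kb were counted as shared, after the methods. The fragments needed for a call were taken from the Poisson tail at the IgG level, scaled between lists by their lowest levels. Intervals are 95% Poisson or exact binomial. Genes named in the text are the 8 genes, the genes nearest to their peaks, pathway genes with a RARα peak and the 3 with the highest BATF control fold within 10 kb. Others (Rdh11 and the further pathway genes, and Art2b, Ccr9, Nt5e and P2rx7) were named after their values were seen. Alternatives were other thresholds and other rules of gene assignment. DNA sequence and motifs, and RNA sequencing, were not used here. A further marker list is not reported here. Work was done in Python 3.11.15 (matplotlib 3.10.9, scipy 1.17.1, pandas 2.3.3, numpy 2.4.6), and the distance, assignment and threshold steps were tested on simulated data.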

Additional observations from a re-analysis of the deposited data

How the results depend on the processing

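No paired analysis was possible because every condition has 1 pooled list. Of 55 recomputed values, 27 stayed within 1.5 times and 28 did not. Counts of peaks or genes and shares of genes have no direction, so a reversal could not be seen in them. Only the fold ratio of RA over control at Cyp26b1 could have changed direction, and it did not (1.30 and 1.45). The RARα peak with RA at Tgm2 was absent (0 peaks, 0 genes) at a p-value of 1e-05, at a q-value of 0.05, at a fold of at least 5 and within 10 kb of the gene. RARα control stayed at 0 peaks except within 100 kb of the gene, where it had 2 peaks at 1 gene, Stra6. BATF control fell from 4 peaks to 2 at a fold of at least 5. Within 10 kb it had 1 peak at 1 gene and BATF with RA 0 peaks at 0 genes. Within 100 kb they had 22 peaks and 15 peaks, at 5 genes each. By nearest protein-coding gene they had 1 peak at 1 gene and 0 peaks at 0 genes. Limiting all genes to protein-coding ones moved the share named from 3.53% to 7.18% (RARα control), 1.55% to 3.19% (RARα with RA), 23.7% to 48.6% (BATF control) and 18.6% to 38.2% (BATF with RA). With a tolerance of 10 kb in place of 5 kb, chosen after seeing the data, the RARα peak at Tgm2 had a BATF control peak near it, 1 in place of 0. The moves by distance follow from the width of the window, and those by p, q or fold from the values of each peak given above. Those by nearest gene follow from which gene lay nearest to each peak, and those in the shares from the set of genes counted. Without the constant of the peak caller, the fold ratio at Cyp26b1 was 1.45 in place of 1.30. Depth limits RARα calls to at least 9 fragments at the summit.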
